A study of Mus musculus with 31 samples.

Results

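Prostaglandins and leukotrienes are lipid mediators of inflammation made from arachidonic acid, and 9 genes of the pathway were followed here by their symbols among the 46072 genes listed for each tumor. Cytosolic phospholipase A2 (Pla2g4a) frees arachidonic acid from membrane phospholipids. The cyclooxygenases Ptgs1 (COX-1, usually constitutive) and Ptgs2 (COX-2, usually inducible) turn it into prostaglandin H2, from which the microsomal synthase Ptges makes prostaglandin E2. Hpgd inactivates prostaglandin E2, and the receptors Ptger2 and Ptger4 carry its signal through cAMP. In the other branch the 5-lipoxygenase Alox5, helped by its activating protein Alox5ap, makes the precursor of the leukotrienes, which attract and activate leukocytes. Prostaglandin E2 is known in tumors for dampening cytotoxic lymphocytes and for following cell injury, and leukotriene B4 for drawing in neutrophils.

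Messenger RNA was sequenced from 31 subcutaneous tumors, each from 1 mouse, grown from RM-9 (prostate cancer) or MC-38 (colon cancer) cells, which the labels write RM9 and MC38. The mice were wild-type male C57BL/6J, 6 to 7 weeks old when bought, and carried the tumor in the right hind leg. At 8 mm diameter the tumors received local radiation therapy (RT) in a single dose of 15 Gy. For each model there were 4 control mice and 4 mice each at 3, 12 and 24 h after RT, except 3 RM-9 mice at 24 h. The controls were untreated and carry the 3 h time label, and the same 4 mice served as control for all 3 times of a model. Each model is 1 cultured line in 1 mouse strain, and the deposited tables number its libraries from 1 as a set of its own, so that any difference between the sets cannot be told apart from the model. In bulk tumor RNA, fewer cells of a type and less RNA per cell cannot be told apart either.

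The libraries held 23.0 to 29.4 M reads in RM-9 and 21.4 to 25.5 M reads in MC-38. Levels are TPM, read counts per gene length scaled to a fixed sum in each library, and in these files a single mitochondrially encoded gene, mt-Nd4l, took 35.6% to 43.5% of that sum in RM-9 and 12.9% to 29.6% in MC-38. A change in that share moves every other gene, so changes are given beside the median of all genes tested and under other scalings. Of the markers of the labelled tissues, the sum of 5 epithelial keratin and adhesion genes averaged 1317 TPM in RM-9 controls and 0.910 TPM in MC-38 controls. Summed colon markers averaged 1.58 TPM in MC-38 controls and 7.54 TPM in RM-9 controls, and summed prostate markers 2.15 TPM in RM-9 controls and 3.16 TPM in MC-38 controls, so neither list was higher in the model of its tissue. Of their members, Cdx1 and Cdx2 were listed at 0 in all 16 MC-38 libraries, and Pbsn at 0 in all 15 RM-9 libraries.

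The promoters of the 3 members on which the results turn most are shown first, as the 250 bases before the RefSeq start in GRCm38.p6, read 5′ to 3′ on the gene's strand, with matches to searched motifs in capitals. Pla2g4a and Ptgs2 are neighbours on chromosome 1. Pla2g4a (ENSMUSG00000056220) spans chr1:149829618-149961290 on the minus strand and Ptgs2 (ENSMUSG00000032487) chr1:150100031-150108227 on the plus strand. The gap of 139 kb holds 3 listed genes, none above 2.85 TPM in any tumor, and the promoters of the pair face each other across it. Ptges (ENSMUSG00000050737) spans chr2:30889471-30929863 on the minus strand, and its RefSeq start lies inside that gene model.
Ptgs2, chr1:150099781-150100030, plus strand: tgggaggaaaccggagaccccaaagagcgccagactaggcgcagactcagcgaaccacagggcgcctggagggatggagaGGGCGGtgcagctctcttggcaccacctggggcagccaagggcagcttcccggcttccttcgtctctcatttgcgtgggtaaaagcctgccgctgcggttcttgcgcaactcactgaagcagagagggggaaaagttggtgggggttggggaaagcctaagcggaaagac
Pla2g4a, chr1:149961291-149961540, minus strand: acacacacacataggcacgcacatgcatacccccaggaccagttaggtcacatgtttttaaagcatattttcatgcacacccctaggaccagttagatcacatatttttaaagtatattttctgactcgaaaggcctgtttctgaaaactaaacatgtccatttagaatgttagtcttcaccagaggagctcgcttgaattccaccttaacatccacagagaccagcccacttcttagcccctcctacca
Ptges, chr2:30903298-30903547, minus strand: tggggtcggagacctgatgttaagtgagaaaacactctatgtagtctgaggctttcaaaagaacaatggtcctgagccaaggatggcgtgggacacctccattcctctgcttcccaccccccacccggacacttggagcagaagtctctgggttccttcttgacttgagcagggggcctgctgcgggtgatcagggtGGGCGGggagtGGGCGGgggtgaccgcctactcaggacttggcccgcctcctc

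The Ptgs2 and Ptges promoters were rich in GC, at 61.6% and 59.6%, against 43.2% for Pla2g4a and a median of 52.4% over 32851 mouse promoters. Matches to 7 short motifs were searched on both strands. The GC box, GGGCGG, a site for factors of the Sp family, stood in 32.7% of all promoters of this length. The CCAAT box, read as those letters, stood in 33.8%, and an NF-kB motif in 17.6%. For the TATA box the letters TATAAA were used, found in 12.4% of promoters, and for AP-1 the letters TGANTCA, found in 6.75%. The core of the cAMP response element was read as TGACGT, with a share of 6.47%, and the E-box as CACGTG, with a share of 6.02%. Ptgs2 held 1 GC box, at -170 from the start, and Ptges held 2, at -53 and -42, none of them overlapping another match. Pla2g4a held no match to any of the 7. Of the 9 members, 8 matched the RefSeq promoter table, and Alox5ap was the one that did not.

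The first question was how the pathway stood in untreated tumors of each model. MC-38 tumors held more Pla2g4a, Ptgs2 and Alox5ap, and RM-9 tumors more Ptgs1 and Ptges. Of the 7 members tested, 6 passed (limma, adjusted p under 0.05), 4 higher and 2 lower in MC-38, where 75.4% of all genes tested passed, 64.7% higher and 10.7% lower. Read as overlap of the groups, without a test, 4 of those 7 members lay wholly above in MC-38 and 2 wholly below. Of all genes tested, 60% did not overlap, 50.9% above and 9.09% below. Hpgd, not among the members tested here, lay above as well. The median gene was itself higher in MC-38 by 0.63 on the log2 scale, so the members are given against it too. With libraries scaled to the median gene ratio, the split of all called genes went from 85.8% higher to 51.9% higher, and that of the members from 4 higher and 2 lower to 3 and 2.

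Pla2g4a stood at 6.02, 6.04, 6.51 and 5.63 TPM in the 4 RM-9 controls and at 9.83, 18.9, 17.3 and 12.4 TPM in the 4 MC-38 controls. Every MC-38 control was above every RM-9 control, with a wider spread in MC-38. The log2 difference was 1.16 (SE 0.17, limma adjusted p = 8.19e-07), or 0.54 above the median gene. Ptgs2 was 4.21, 3.64, 4.26 and 1.86 TPM in RM-9 controls against 9.59, 21.6, 15.7 and 7.94 TPM in MC-38 controls. These groups did not overlap either, and the log2 difference was 1.78 (SE 0.44, limma adjusted p = 0.000677), or 1.15 above the median gene. Ptgs1 ran the other way, at 6.71, 7.81, 7.39 and 7.03 TPM in RM-9 and 1.35, 2.76, 2.46 and 2.04 TPM in MC-38. All RM-9 values were above all MC-38 values, and the log2 difference was -1.57 (SE 0.28, limma adjusted p = 1.40e-05), or -2.20 relative to the median gene. As a result the Ptgs2 to Ptgs1 ratio of TPM was 0.264 to 0.627 in RM-9 controls and 3.88 to 7.81 in MC-38 controls. By coverage, as reads per kb, RM-9 control mouse 1 held 115 of Ptgs2 against 106 of Ptgs1, the reverse of its order by TPM. Mouse 3 held 103 against 113, the same order as by TPM but closer. The RM-9 control means were 88.0 for Ptgs2 and 112.9 for Ptgs1, so Ptgs1 was the higher on average by both quantities. In all 4 MC-38 controls Ptgs2 was the higher by both.

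Ptges was the most abundant prostaglandin gene of the set in both models, at 37.4, 42.3, 43.0 and 34.5 TPM in RM-9 controls and 21.3, 27.8, 31.6 and 30.6 TPM in MC-38 controls. The RM-9 group lay above the MC-38 group without overlap (log2 difference -0.50, SE 0.15, limma adjusted p = 0.00349), at -1.13 relative to the median gene. Alox5ap was at 14.3, 13.3, 7.28 and 16.5 TPM in RM-9 controls and at 35.7, 44.5, 39.96 and 52.8 TPM in MC-38 controls, again without overlap (log2 difference 1.76, SE 0.22, limma adjusted p = 7.14e-08), at 1.13 above the median gene. The summed level of 7 macrophage markers was 538 to 864 TPM in RM-9 controls and 979 to 1686 TPM in MC-38 controls. The median gene was itself higher in MC-38 by 0.63 on the log2 scale. T-cell (17.2 against 6.10 TPM), endothelial (43.5 against 19.7 TPM) and neutrophil (18.6 against 16.5 TPM) means were also higher in MC-38 controls. Mast cell (12.8 against 23.5 TPM), platelet (33.1 against 50.9 TPM) and fibroblast (408 against 425 TPM) means were lower. The part of any cell type in the difference was not tested.

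Low members completed the picture. Alox5 itself was far below its partner, at 0.488 ± 0.162 TPM (SD, n = 4) in RM-9 controls and 0.654 ± 0.189 TPM (SD, n = 4) in MC-38 controls, groups that overlapped (limma adjusted p = 0.309). Ptger4 was 0.646 ± 0.150 TPM against 1.23 ± 0.227 TPM (SD, n = 4 each), a log2 difference of 0.60 (limma adjusted p = 0.000496) that was 0.18 with median-ratio scaling (adjusted p = 0.314), so its call rested on the TPM scale. Ptger4 overlaps Ttc33 on the opposite strand, a gene at a median of 12.2 TPM, and whether strand was used in quantification is not given in the sources used here. Hpgd ranged from 0 to 0.268 TPM in RM-9 controls and from 0.475 to 1.87 TPM in MC-38 controls, without overlap (exact permutation test of the means, two-sided, p = 0.0286, the smallest that 4 against 4 allows). Ptger2 lay between 0.113 and 0.312 TPM in the controls of both models, with overlap. Hpgd in RM-9 and Ptger2 in both models were under the mean of 0.5 TPM needed for the test.

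**Figure D1:**
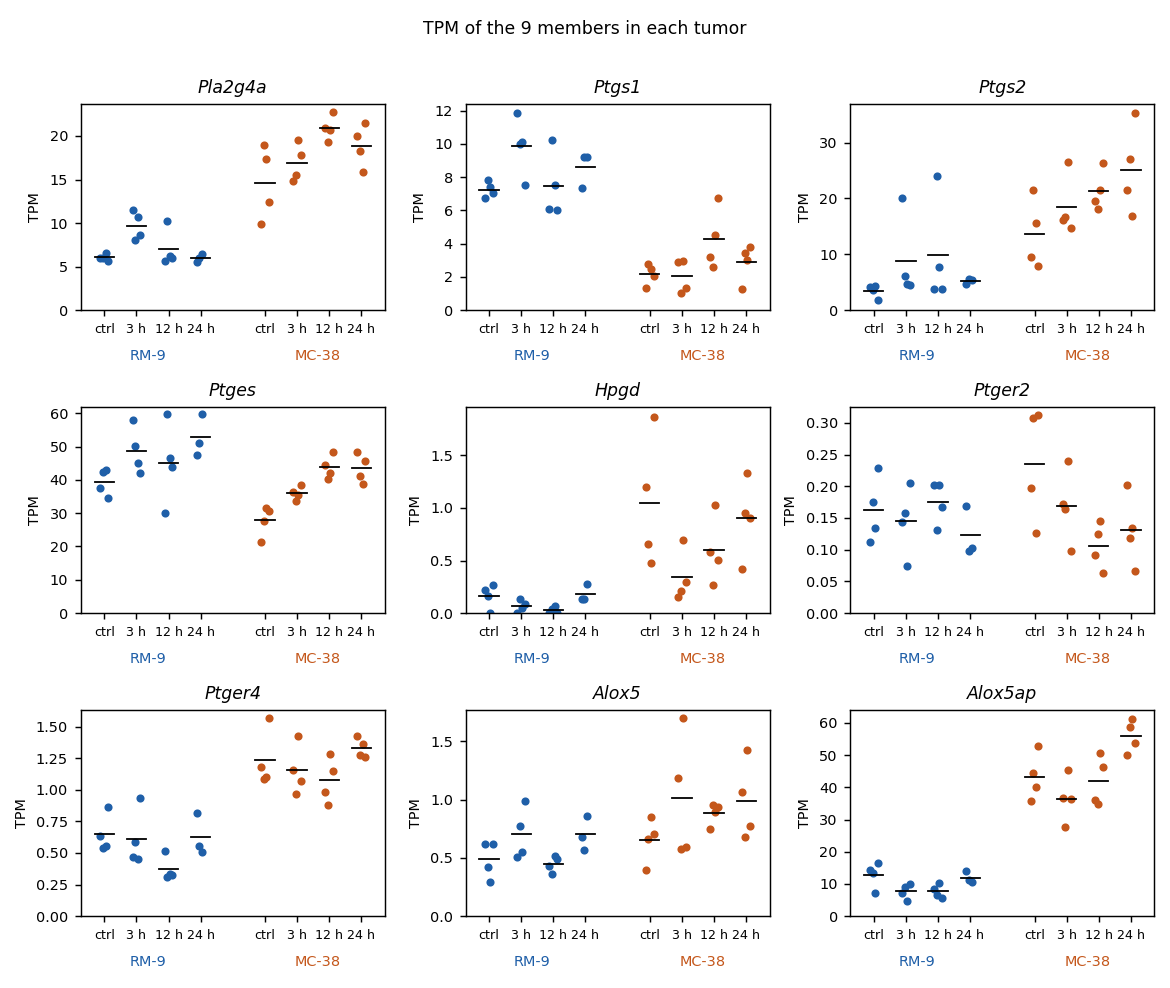
TPM (y axis, linear, from 0) of the 9 members in each of the 31 tumors by group (x axis: control and 3, 12 and 24 h after RT); points are mice and black lines group means. Pla2g4a, Ptgs2 and Alox5ap sit higher in MC-38 (orange) than in RM-9 (blue) controls and Ptgs1 sits lower, and in MC-38 the Ptges points at 12 and 24 h are all above the control points.

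Ordered by mean TPM, which is per length, the RM-9 controls ran Ptges 39.3, Alox5ap 12.8, Ptgs1 7.24, Pla2g4a 6.05 and Ptgs2 3.49. Of these neighbours, Alox5ap and Ptgs1 overlapped, and the others did not. The MC-38 controls ran Alox5ap 43.3, Ptges 27.8, Pla2g4a 14.6, Ptgs2 13.7 and Ptgs1 2.16, with overlap between Pla2g4a and Ptgs2 only. The deposited FPKM of a gene exceeded the value its coverage gives by a median factor of 6.88 for Alox5ap, 2.25 for Pla2g4a and 1.91 for Ptgs1, but 1.14 for Ptgs2 and 1.10 for Ptges, so the order between genes depends on how the quantifier spread reads over transcripts. Between libraries the factor ran from 2.24 to 2.33 for Pla2g4a, 1.14 to 1.15 for Ptgs2, 1.08 to 1.17 for Ptges and 6.88 to 6.92 for Alox5ap. Comparisons of 1 such gene between tumors are less touched by this. For Ptgs1 the factor ran from 1.72 to 2.59 and for Alox5 from 1.30 to 2.08, so their comparisons between tumors depend on it as well.

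The second question was what RT did to the pathway in each model, at each time against control. In MC-38 the prostaglandin E2 synthase Ptges rose at 12 and 24 h and kept that call under other scalings, while the calls of Pla2g4a and Ptgs2 depended on the setting. At 12 h, 2 of 8 members tested passed, Ptges and Pla2g4a, both higher, where 31.1% of all genes tested passed and 28.5% were called higher. At 24 h, Ptges and Ptgs2 passed, 2 of 8, where 13.8% of all genes passed and 13.2% were called higher. The count of 2 was no larger than the background share would give among 8 genes at 12 h. At 24 h it was little above that share, and the excess was not tested. The 24 h count fell to 1 with median-ratio scaling and to 0 with only the 2 compared groups. The median of the members tested was 0.41 at 12 h and 0.37 at 24 h on the log2 scale, against 0.33 and 0.22 for all genes.

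Ptges, the last step to prostaglandin E2, was at 21.3, 27.8, 31.6 and 30.6 TPM in MC-38 controls, at 36.5, 33.6, 35.5 and 38.5 TPM at 3 h, at 44.4, 40.2, 42.0 and 48.5 TPM at 12 h and at 48.3, 41.0, 38.7 and 45.7 TPM at 24 h. Every irradiated MC-38 tumor was above every control at each of the 3 times. Ptges was the only member without overlap at 3 h (8.18% of all genes, 7.2% above) and at 24 h (15.7%, 14.8% above), and Pla2g4a joined it at 12 h (36.5%, 34.5% above). The log2 fold change was 0.38 at 3 h (SE 0.12, limma adjusted p = 0.152), 0.66 at 12 h (SE 0.12, adjusted p = 0.00677) and 0.64 at 24 h (SE 0.12, adjusted p = 0.00360), which is a 1.58-fold and a 1.56-fold higher level at 12 and 24 h. Relative to the median gene the rise was 0.33 at 12 h and 0.42 at 24 h. It held with libraries scaled by the median gene ratio, at 0.31 (adjusted p = 0.0483) and 0.38 (adjusted p = 0.0185). Fitted on the 2 compared groups alone, the 24 h change had an adjusted p of 0.0654.

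The lowest MC-38 control in Ptges, mouse 1, held 9783 TPM of summed skeletal muscle markers (5 genes), against 16.9 to 1592 TPM in the other 3 controls. Without that mouse the Ptges change was 0.54 at 12 h (limma adjusted p = 0.00959) and 0.52 at 24 h (adjusted p = 0.00417). Leaving out any other single mouse of the compared groups kept the call in all fits, with values up to 0.72 at 12 h and 0.71 at 24 h.

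Pla2g4a was at 9.83, 18.9, 17.3 and 12.4 TPM in MC-38 controls and at 20.9, 19.3, 20.6 and 22.8 TPM at 12 h, just above the highest control in every mouse. The log2 fold change was 0.55 (SE 0.17, limma adjusted p = 0.0306), or 0.22 relative to the median gene. That call was kept in 6 of 11 other settings and in few fits without 1 mouse. It was 0.21 with median-ratio scaling (adjusted p = 0.243) and 0.38 without control mouse 1, the muscle-rich tumor (adjusted p = 0.0932). It was kept in 2 of 8 fits that left out 1 mouse, those without control mouse 2 (0.68) and without control mouse 3 (0.64). At 24 h the values were 20.002, 18.3, 15.8 and 21.5 TPM, overlapping the controls (log2 fold change 0.40, adjusted p = 0.133).

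Ptgs2 was at 9.59, 21.6, 15.7 and 7.94 TPM in MC-38 controls, at 19.5, 18.1, 21.4 and 26.4 TPM at 12 h and at 21.4, 27.0, 16.8 and 35.2 TPM at 24 h. Control mouse 2 overlapped the irradiated groups at both times. The log2 fold change was 0.71 at 12 h (SE 0.28, limma adjusted p = 0.0637) and 0.90 at 24 h (SE 0.28, adjusted p = 0.0450), and the exact permutation test of the means gave p = 0.114 and 0.0857 (two-sided). The 24 h call was kept in 3 of 11 other settings, and Dunnett's comparison on TPM gave an adjusted p of 0.240. The call was lost with median-ratio scaling (0.65, limma adjusted p = 0.108) and in 4 of 8 fits that left out 1 mouse. Those fits left out control mouse 1 (0.77), control mouse 4 (0.69), RT mouse 2 (0.85) or RT mouse 4 (0.73). No member passed at 3 h in MC-38, where 0.0637% of all genes did and Dunnett's comparison called 0 members. An unadjusted limma p under 0.05 was found for 2 of the 8 members tested and for 3130 of all 15698 genes. Ptgs2 at 3 h was at 16.1, 16.8, 26.5 and 14.8 TPM, within the range of the controls in all but 1 mouse (log2 fold change 0.49, limma adjusted p = 0.315).

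Ptgs1 in MC-38 stood at 3.21, 2.61, 4.54 and 6.76 TPM at 12 h, above its controls in 3 of 4 mice by single values (log2 fold change 0.80, SE 0.34, limma adjusted p = 0.0773). The Ptgs2 to Ptgs1 ratio stayed above 1 in all 16 MC-38 tumors, with medians of 6.72 in control, 9.94 at 3 h, 5.39 at 12 h and 8.55 at 24 h, and the groups overlapped. Hpgd, which degrades prostaglandin E2, was at 1.20, 0.656, 0.475 and 1.87 TPM in controls and 0.153, 0.208, 0.698 and 0.298 TPM at 3 h. One 3 h mouse lay within the control range and the other 3 lay under it (log2 fold change -0.84, SE 0.30, limma adjusted p = 0.180), and by 24 h the values were 0.422, 0.951, 1.33 and 0.905 TPM. The receptor Ptger4 did not pass at any time and had log2 fold changes of -0.06, -0.14 and 0.09 at 3, 12 and 24 h, with limma adjusted p from 0.467 to 0.812. Ptger2 was under the level needed for the test, at means of 0.236 TPM in controls and 0.106 TPM at 12 h, and with no filter on low values its log2 fold change at 12 h was -0.27 (limma adjusted p = 0.0675).

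In the leukotriene arm of MC-38, Alox5ap was at 36.5, 27.8, 45.3 and 36.3 TPM at 3 h, at 36.1, 34.7, 50.7 and 46.4 TPM at 12 h and at 50.2, 58.9, 61.2 and 53.9 TPM at 24 h. The control mice at 35.7 to 52.8 TPM overlapped each group, at 24 h through 1 control only. The log2 fold changes were -0.25, -0.05 and 0.38 (limma adjusted p = 0.361, 0.827 and 0.121). Set beside them, the summed macrophage markers had means of 1337 TPM in controls and 982, 541 and 883 TPM at 3, 12 and 24 h, while 7 neutrophil markers had 18.6, 16.01, 15.4 and 29.6 TPM, with Ly6g listed at 0 in 15 of 16 MC-38 libraries. Alox5 stayed between 0.399 and 1.70 TPM throughout, with log2 fold changes of 0.34, 0.27 and 0.35 (limma adjusted p = 0.389, 0.351 and 0.326). The part of any cell type in these values was not tested.

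**Figure D2:**
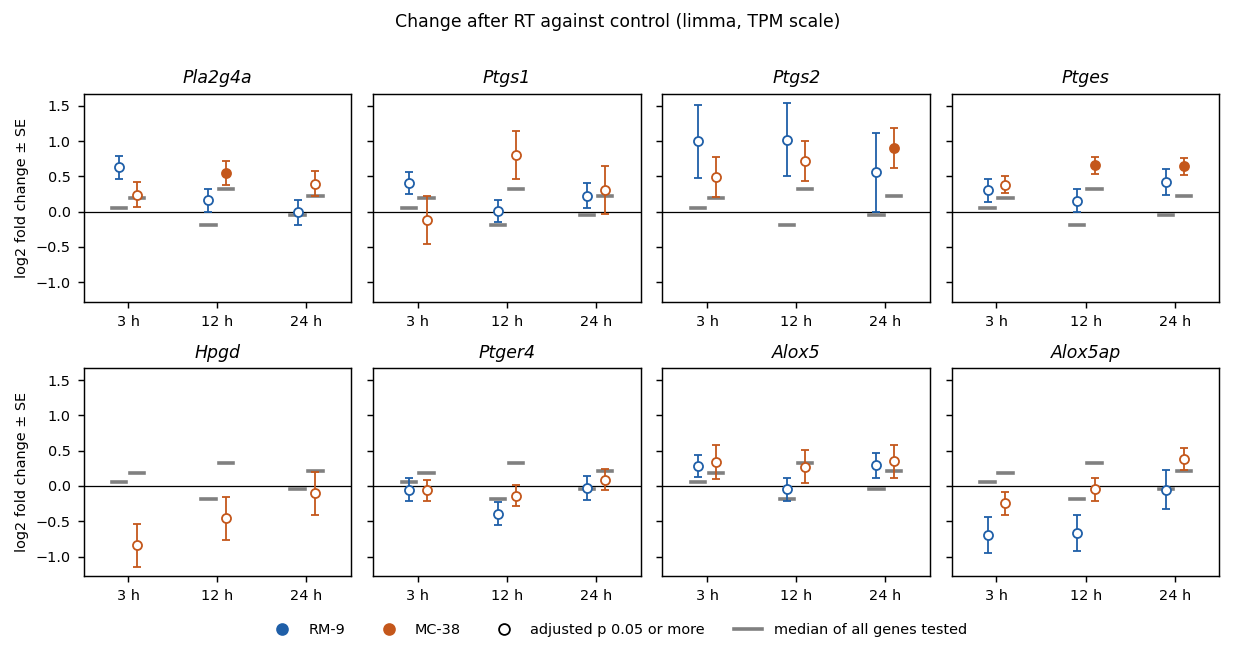
Log2 fold change (y axis, TPM scale, bars are SE) of 8 members at 3, 12 and 24 h after RT (x axis) against control in RM-9 (blue) and MC-38 (orange), with grey bars at the median of all genes tested; filled points passed limma's test. Filled points are Ptges at 12 and 24 h, Pla2g4a at 12 h and Ptgs2 at 24 h, all in MC-38, and the MC-38 medians lie at 0.19, 0.33 and 0.22.

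How the 4 MC-38 calls moved with scaling is drawn next. The called genes of MC-38 at 12 h were 91.7% higher on the TPM scale and 39.2% higher with median-ratio scaling, and at 24 h 96.02% and 49.0%. Under the same change the members called went from 2 to 1 at each time, with Ptges as the one that remained.

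**Figure D3:**
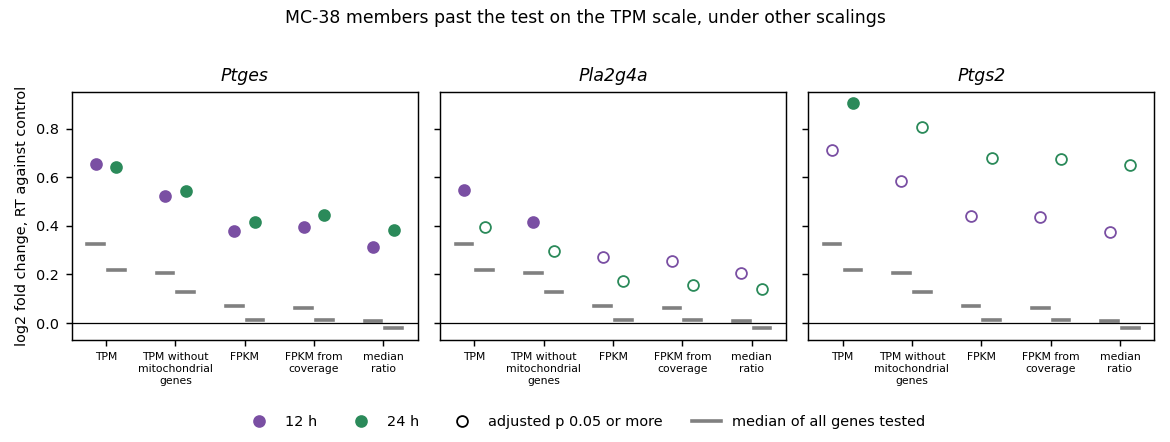
Log2 fold change (y axis) of Ptges, Pla2g4a and Ptgs2 in MC-38 at 12 h (purple) and 24 h (green) under 5 scalings (x axis), with grey bars at the median of all genes under the same scaling and filled points for an adjusted p under 0.05. Ptges falls from 0.66 to 0.31 at 12 h and stays filled throughout. Pla2g4a at 12 h loses its filled point under both FPKM scalings and median-ratio scaling, and Ptgs2 at 24 h under every scaling but plain TPM.

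In RM-9 no member passed limma's test at any time, where 0.228%, 8.37% and 0% of all genes tested passed at 3, 12 and 24 h. At an unadjusted limma p under 0.05 there were 3, 2 and 1 of the 7 members tested, and 3060, 4344 and 681 of all 14013 genes tested. Dunnett's comparison on TPM called 0 members at each time. At 3 h, 2 members lay above control without overlap, Pla2g4a and Ptgs2, where 12.8% of all genes did not overlap and 9.88% lay above. At 12 h 1 member lay below, Ptger4, where 19.7% of all genes did not overlap and 19.4% lay below. At 24 h 2 lay above, Ptgs2 and Ptges, against 4.25% of all genes, 2.01% above.

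Pla2g4a in RM-9 was at 11.5, 8.05, 10.7 and 8.57 TPM at 3 h, against 5.63 to 6.51 TPM in controls. All 4 irradiated mice were higher, and the log2 fold change was 0.63 (SE 0.16, limma adjusted p = 0.105; exact permutation test, two-sided, p = 0.0286). By 12 h the values were 5.61, 10.3, 6.19 and 6.01 TPM and by 24 h 5.55, 6.00 and 6.46 TPM, so 1 mouse was high at 12 h and none at 24 h. Ptgs1 was at 11.8, 9.99, 10.1 and 7.54 TPM at 3 h, overlapping the controls through its lowest mouse (log2 fold change 0.41, SE 0.16, limma adjusted p = 0.167).

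Ptgs2 in RM-9 was at 20.2, 6.16, 4.63 and 4.42 TPM at 3 h, at 3.72, 24.0, 7.81 and 3.75 TPM at 12 h and at 4.65, 5.49 and 5.37 TPM at 24 h, with controls from 1.86 to 4.26 TPM. A single mouse carried most of the level at 3 h (mouse 1) and at 12 h (mouse 2). The log2 fold changes were 1.00 (SE 0.52, limma adjusted p = 0.264), 1.02 (SE 0.52, adjusted p = 0.192) and 0.56 (SE 0.56, adjusted p = 0.999). Without those mice they were 0.52 at 3 h and 0.46 at 12 h. The same 2 tumors were also the highest of their groups in Pla2g4a, Ptgs1 and Ptges and the lowest in the summed macrophage markers, at 396 and 276 TPM, against group maxima of 637 and 570 TPM. Their Ptgs2 to Ptgs1 ratios of 1.70 and 2.35 were the highest of the 15 RM-9 tumors.

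Ptges in RM-9 was at 57.9, 50.01, 45.1 and 41.9 TPM at 3 h, at 29.9, 59.8, 46.6 and 43.9 TPM at 12 h and at 47.3, 51.0 and 59.9 TPM at 24 h. The 3 mice at 24 h were all above the highest control of 43.0 TPM (log2 fold change 0.42, SE 0.18, limma adjusted p = 0.999; exact permutation test, two-sided, p = 0.0286, the smallest that 3 against 4 allows). Ptger4 was at 0.512, 0.313, 0.337 and 0.327 TPM at 12 h, all under the lowest control of 0.537 TPM (log2 fold change -0.39, SE 0.16, limma adjusted p = 0.116). The median gene moved by -0.19 at that time, and relative to it Ptger4 stood at -0.20. Hpgd was listed at 0 in 4 of the 15 RM-9 tumors and never exceeded 0.275 TPM.

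Alox5ap in RM-9 was at 7.26, 9.13, 4.57 and 9.89 TPM at 3 h and at 8.28, 6.70, 10.3 and 5.66 TPM at 12 h, then 13.99, 11.2 and 10.6 TPM at 24 h. Controls at 13.3 to 16.5 TPM were above all of the 3 and 12 h mice, but control mouse 3, at 7.28 TPM, overlapped them. The log2 fold changes were -0.69 (SE 0.26, limma adjusted p = 0.155), -0.67 (SE 0.26, adjusted p = 0.0967) and -0.05 (adjusted p = 0.999). Without control mouse 3, which also had the lowest macrophage sum of the controls at 538 TPM, the 12 h value was -0.91 (limma adjusted p = 0.0283). That was the only 1 of 8 fits without 1 mouse in which Alox5ap passed at 12 h. Alox5ap passed in 0 of 11 other settings, where the value shrank to as little as -0.40 and limma adjusted p reached 0.412. The median gene moved by -0.19 at 12 h, and relative to it Alox5ap stood at -0.48. Summed macrophage markers had means of 749 TPM in control and 547, 466 and 786 TPM at 3, 12 and 24 h, and 4 T-cell markers 6.10, 2.65, 2.35 and 3.29 TPM. Over the 15 RM-9 libraries Alox5ap went with the macrophage sum at a Pearson r of 0.77, and over the 16 MC-38 libraries at 0.13. In the same order, the neutrophil sum gave 0.69 and 0.74, the T-cell sum 0.83 and 0.10 and the mast cell sum 0.44 and 0.68. The macrophage sum was thus not the closest list in either model. All of these describe libraries that share time groups, and the part of any cell type was not tested.

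The third question was whether the response differed between models. The difference of the changes was tested in 1 fit of all libraries, and no member passed at 3, 12 or 24 h, where 0%, 45.4% and 1.81% of all genes tested did. Limma adjusted p ran from 0.586 to 0.994 at 3 h, from 0.0525 to 0.691 at 12 h and from 0.336 to 0.935 at 24 h. Of all 15358 genes tested, 1519, 8540 and 3402 had an unadjusted limma p under 0.05 at 3, 12 and 24 h. Of the members 1 did, Ptges at 12 h. Its rise was larger in MC-38 by 0.50 on the log2 scale (adjusted p = 0.0525), while the median gene differed by 0.50 as well, and with median-ratio scaling the Ptges difference was -0.03.

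Among the members, Ptgs2 moved most like its neighbour. By a rule that ranked 7302 genes by the lower of their Pearson r in the 2 models, on median-ratio-scaled log2 values, the first for Ptgs2 was Pla2g4a, at 0.75 over 15 RM-9 libraries and 0.78 over 16 MC-38 libraries, and the next was Adam9, at 0.69 and 0.68. Within groups, the deviations from the group means of the pair gave 0.77 in RM-9 and 0.81 in MC-38. In RM-9 Spearman's rho was 0.46, against 0.71 in MC-38. Without the 2 libraries farthest from the median in Pla2g4a, r was 0.82 in RM-9 and 0.71 in MC-38, but the RM-9 value rested on the 2 tumors with high Ptgs2, without which it was 0.34 over 13 libraries. For the other members the first-ranked genes were Sept8 for Pla2g4a (0.79 and 0.77), Fam129a for Ptgs1 (0.75 and 0.84), Adamts4 for Ptges (0.81 and 0.83) and Slfn2 for Alox5ap (0.89 and 0.84). These are descriptions across libraries of shared groups and depth, and the rank was the criterion by which they were picked.

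**Figure D4:**
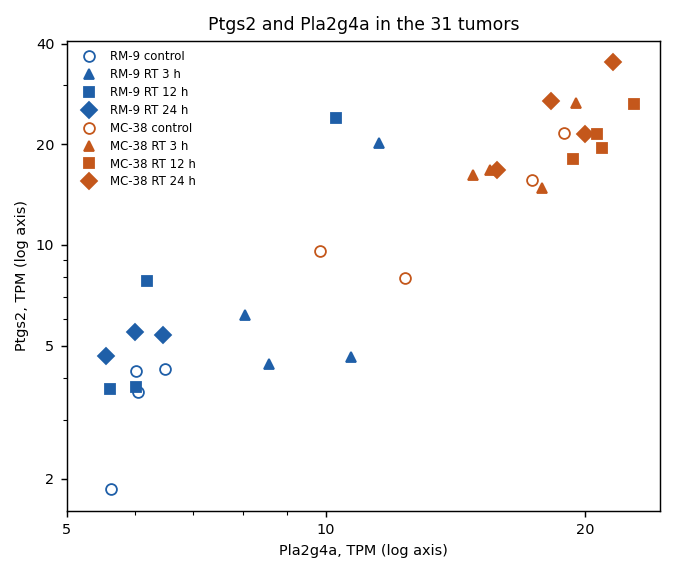
Ptgs2 against Pla2g4a in the 31 tumors, both in TPM on log axes, with colour for the model and shape for the group (open circles are controls). The RM-9 tumors with Ptgs2 at 20.2 and 24.0 TPM stand apart from the other RM-9 points, and the MC-38 points lie higher on both axes.

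The rest of the pathway was read from 44 further genes of arachidonic acid and eicosanoid metabolism in 7 lists, of which 25 were tested in RM-9 and 30 in MC-38. In MC-38 at 12 h, 6 rose and 5 fell, where 4469 of all 15698 genes tested were called higher and 406 lower. With median-ratio scaling the split was 1 higher and 7 lower, and that of all genes 995 and 1544. The 5 that fell were Cyp4f18, which inactivates leukotriene B4, the cysteinyl leukotriene receptor Cysltr1, thromboxane synthase Tbxas1, the prostaglandin D2 synthase Hpgds and the dipeptidase Dpep2, which converts leukotriene D4. Phospholipases gave 2 of 7 tested higher, prostanoid synthases 1 higher and 2 lower of 8, transport and breakdown 1 higher of 4, leukotriene synthesis, export and breakdown 2 higher and 2 lower of 7, and leukotriene receptors 1 lower of 3. The other lipoxygenases were under the level needed for the test in both models.

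Cyp4f18 was at 12.97, 13.6, 11.5 and 14.7 TPM in MC-38 controls, at 4.58, 4.99, 7.18 and 2.95 TPM at 12 h and at 8.72, 6.90, 9.58 and 8.39 TPM at 24 h. Both irradiated groups lay under all controls (log2 fold change -1.39, SE 0.20, limma adjusted p = 0.00376 at 12 h; -0.62, SE 0.20, adjusted p = 0.0447 at 24 h). The 12 h call was kept in 8 of 8 fits that left out 1 mouse and the 24 h call in 2 of 8, with adjusted p up to 0.129. Cysltr1 fell by 0.85 on the log2 scale (SE 0.18, limma adjusted p = 0.00944) from a mean of 1.49 to 0.615 TPM. Tbxas1 fell by 1.34 (adjusted p = 0.0155), Hpgds by 0.85 (adjusted p = 0.0276) and Dpep2 by 0.66 (adjusted p = 0.0275), each with some overlap between the groups, and kept the call in 6, 5 and 4 of 8 fits without 1 mouse. Those 3 were named after their values were seen, because the count that fell was 5. The summed macrophage markers stood at 301 to 846 TPM at 12 h against 979 to 1686 TPM in controls, and its part in these changes was not tested.

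Of the genes that rose in MC-38, the calcium-independent phospholipase Pla2g6 went from 6.20, 8.31, 8.84 and 5.79 TPM in controls to 14.3, 14.9, 13.04 and 12.1 TPM at 12 h, all higher (log2 fold change 0.87, SE 0.18, limma adjusted p = 0.00880), and was 0.58 higher at 24 h (adjusted p = 0.0412). The 24 h call was kept in 2 of 8 fits that left out 1 mouse and in 4 of 11 other settings. The secreted phospholipase Pla2g5 went from a mean of 16.3 to 24.8 TPM at 12 h (log2 fold change 0.65, SE 0.22, limma adjusted p = 0.0398), a call kept in 2 of 8 fits that left out 1 mouse. At 24 h 2 genes rose and 1 fell, where 2073 of the 15698 genes were called higher and 86 lower, and with median-ratio scaling none rose and 2 fell, where 1232 and 1280 did. The prostaglandin transporter Slco2a1, which takes up prostaglandins for clearance, was at 1.68, 1.20, 1.29 and 1.71 TPM in controls and 2.48, 3.59, 2.57 and 2.85 TPM at 24 h, without overlap (log2 fold change 0.78, SE 0.19, limma adjusted p = 0.0136).

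**Figure D5:**
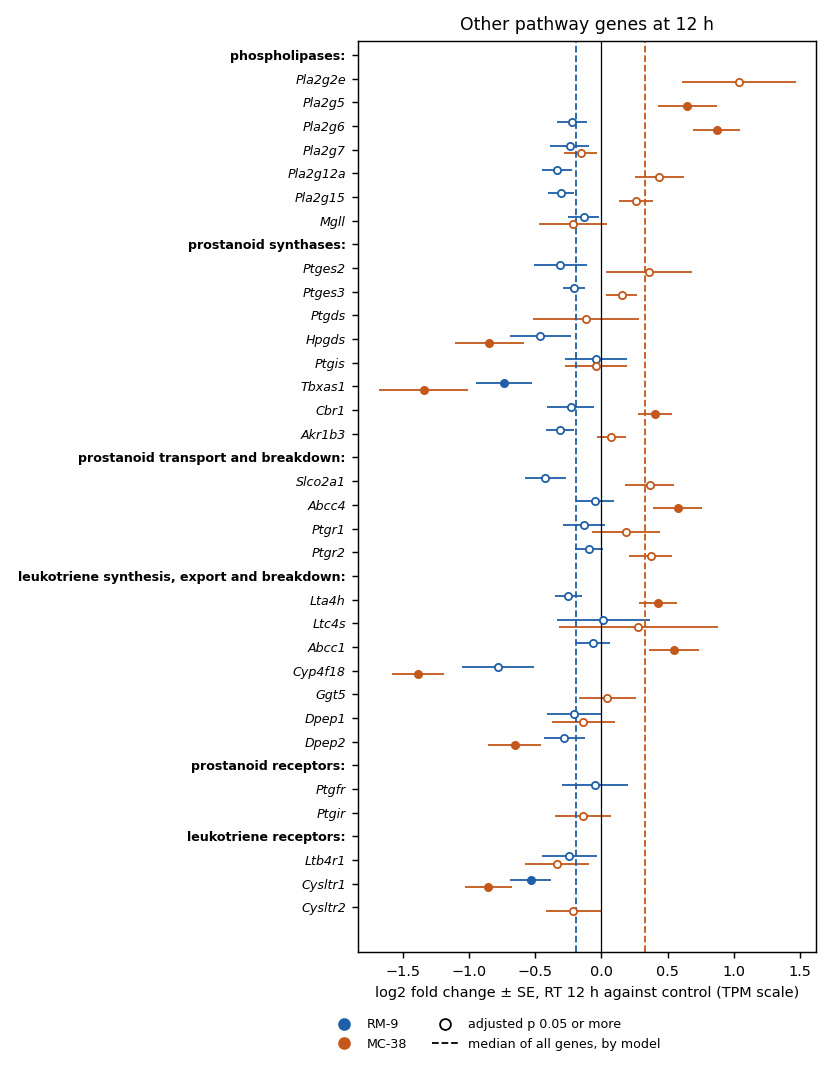
Log2 fold change at 12 h after RT against control (x axis, TPM scale, bars are SE) of the other pathway genes tested in RM-9 (blue) or MC-38 (orange), grouped by list (y axis); filled points passed limma's test and dashed lines mark the median of all genes in each model. Cyp4f18 and Tbxas1 lie farthest to the left in MC-38, at -1.39 and -1.34, and Pla2g6 is the filled point farthest to the right, at 0.87.

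In RM-9, 2 of the 25 other genes tested passed at 12 h, both lower, close to the 8.37% of all genes that passed, 1163 of those 1173 lower, and with median-ratio scaling none did. Tbxas1 was at 4.59, 3.79, 2.96 and 3.41 TPM in controls and 2.57, 1.23, 2.23 and 2.14 TPM at 12 h, without overlap (log2 fold change -0.74, SE 0.21, limma adjusted p = 0.0461), and Cysltr1, named because the count was 2, had a log2 fold change of -0.54 (adjusted p = 0.0469). Both calls were lost in most fits that left out 1 mouse: Tbxas1 passed in 1 of 8 and Cysltr1 in none. None of the 25 passed at 3 or 24 h, where 7 and 0 had an unadjusted limma p under 0.05, against 3060 and 681 of all 14013 genes. None of the 30 in MC-38 passed at 3 h, where 4 had such an unadjusted p, against 3130 of all 15698 genes.

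Between untreated models, 18 of 28 other genes tested were higher in MC-38 and 4 lower, close to the 64.7% and 10.7% of all genes, and 13 and 7 with median-ratio scaling. Pla2g5 averaged 16.3 TPM in MC-38 controls and 0.0163 TPM in RM-9 controls, where it was listed at 0 in 2 of 4 mice. Pla2g7, the platelet-activating factor acetylhydrolase, averaged 310.5 TPM in RM-9 and 44.8 TPM in MC-38 (log2 difference -2.77, SE 0.14, limma adjusted p = 7.36e-16). Prostacyclin synthase Ptgis was at 4.61 against 0.757 TPM (log2 difference 2.03, adjusted p = 2.53e-08), the carbonyl reductase Cbr1 at 9.76 against 2.08 TPM (1.99, adjusted p = 7.26e-12) and leukotriene C4 synthase Ltc4s at 0.966 against 3.79 TPM (-1.77, adjusted p = 0.00351). Pla2g2e averaged 1.83 TPM in MC-38 controls and was listed at 0 in all 4 RM-9 controls.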

How the data were processed

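Poly(A) RNA was made into stranded TruSeq libraries and sequenced as single 75-base reads. The authors deposited 1 gene abundance table per library with TPM, FPKM and coverage (signal) per gene. Base calling used bcl2fastq 2.17, per the labels, and the aligner and quantifier are not given in the sources used here. The submitters' notes name GRCm39, but 45223 of the 46072 genes are in GENCODE M21, all on the same chromosome and 91.1% with the same start or end, so coordinates are those of GRCm38. RefSeq promoters are of GRCm38.p6.

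TPM is not a count. Log2(TPM + 0.5) of every gene averaging 0.5 TPM or more (14013 in RM-9, 15698 in MC-38, 15358 over all libraries) was tested with limma 3.58.1 (trended eBayes; R 4.3.3), 4 groups of a model in 1 fit, or 8 groups for baseline and the difference between models. Fold changes are on that scale and understate changes of low genes. P-values were adjusted by Benjamini-Hochberg over all genes tested, at a threshold of 0.05. The study's design of Dunnett's comparison on TPM was an alternative, as were other pseudocounts, filters, scalings, a replicate block and left-out mice. FPKM and coverage served as alternatives added after seeing the data. Single values had exact permutation tests (70 assignments, or 35 for 3 against 4; SciPy 1.17.1). The limma script was tested on simulated data. Depth was read from the ratio of coverage to FPKM. No 2 libraries were duplicates: at least 71.9% of genes differed. P-values cover the spread between mice.

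All 9 members are named. Of the other pathway genes, up to 4 per comparison with control (6 at baseline) are named by log2 fold change among those called, averaging 1 TPM or more, with groups that did not overlap, and other names are marked. Likeness was ranked among genes that averaged 5 TPM or more in both models. Members and lists were chosen with earlier results of these data known.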

Additional observations from a re-analysis of the deposited data

Results flagged for a closer look

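Single mice stood apart from the rest of their group in 4 of the 63 member groups large enough to test, by the gap to the nearest value as a share of the group's range, where chance gives about 1 in 20. Ptgs2 in RM-9 at 3 h was 20.2 TPM in mouse 1 against 6.16 TPM in the next mouse, a gap of 0.889 of the range. Ptgs2 in MC-38 at 3 h was 26.5 TPM in mouse 3 against 16.8 TPM in the next, a gap of 0.832. Pla2g4a in RM-9 at 12 h was 10.3 TPM in mouse 2 against 6.19 TPM, a gap of 0.876. Ptger4 in RM-9 at 12 h was 0.512 TPM in mouse 1 against 0.337 TPM, a gap of 0.877. RM-9 mouse 2 at 12 h had the highest Ptgs2 of that model too, at 24.0 TPM, and MC-38 mouse 3 at 3 h was the highest of its group in 8 of the 9 members.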

How the results depend on the processing

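Counts of calls were the results that moved most, and the cause was not tested. Of the 2 members called in MC-38 at 12 h, 1 remained in number with median-ratio scaling, without a filter, with only the 2 compared groups, with FPKM as deposited, with FPKM from coverage and with Dunnett's comparison on TPM, and with a mean TPM of at least 5 there were 3. At 24 h the 2 became 1 with median-ratio scaling, with TPM without mitochondrially encoded genes, without a filter, without a trend, with both FPKM values and with Dunnett's comparison, and 0 with only the 2 compared groups. Of the other pathway genes, the 11 of MC-38 at 12 h became 6 without a filter, 3 with only the 2 groups and 7 with either FPKM value; the 3 at 24 h became 0 with only the 2 groups and 1 with FPKM as deposited; the 0 at 3 h became 1 without mitochondrial genes, 1 with FPKM as deposited and 2 with FPKM from coverage. The 2 of RM-9 at 12 h became 0 with median-ratio scaling, without mitochondrial genes, without a filter, with only the 2 groups and with either FPKM value, and 1 with a mean TPM of at least 5 or without a trend. For the difference between models at 12 h, the 0 members became 1 (Ptges) with a mean TPM of at least 5. Leaving out 1 mouse gave 0 to 1 members in RM-9 at 12 h and 0 to 0 at 3 and 24 h, 0 to 0, 1 to 3 and 1 to 2 in MC-38 at 3, 12 and 24 h, 6 to 6 at baseline and 0 to 2 for the difference at 12 h, and for other pathway genes 0 to 4 in RM-9 at 12 h and 0 to 1, 3 to 14 and 1 to 7 in MC-38. The FPKM alternatives were chosen after seeing the data.

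Same-numbered mice did not pair (correlations of deviations from -0.48 to 0.55, in no comparison all over 0.1). With the mouse number as a replicate block, members called in MC-38 at 24 h were 1, other pathway genes in RM-9 at 12 h were 0, and members for the difference at 12 h were 1. Each tumor came from its own mouse, so no comparison shares mice and the block checks the numbering only. It was not fitted at baseline.

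Of the single-gene values, 1129 kept direction and call, 109 lost a call, 10 gained one and 46 changed sign, none of the last a call. For Alox5 in RM-9 at 12 h the value was 0.059 with median-ratio scaling, 0.037 without mitochondrial genes, 0.054 with FPKM as deposited and 0.014 from coverage, and at baseline -0.14, -0.0056, -0.025 and -0.10. For Pla2g4a in RM-9 at 24 h it was 0.033, 0.021, 0.038 and 0.036. For Ptger4 at 24 h in RM-9 it was 0.0061 (median ratio), 0.0076 (FPKM), 0.0073 (coverage) and 0.036 (replicate block), and in MC-38 -0.11, -0.075 and -0.041. The Ptges difference at 12 h was -0.034 with median-ratio scaling. Without 1 mouse, sign changes lay within -0.18 to 0.032 (Ptger4), at 3 h in RM-9; -0.15 to 0.018 (Alox5), -0.14 to 0.10 (Ptgs1) and -0.024 to 0.25 (Pla2g4a), at 12 h; -0.29 to 0.085 (Alox5ap), -0.060 to 0.040 (Pla2g4a) and -0.15 to 0.058 (Ptger4), at 24 h. In MC-38 they lay within -0.14 to 0.024 (Ptger4) and -0.29 to 0.10 (Ptgs1) at 3 h, -0.14 to 0.054 (Alox5ap) at 12 h and -0.29 to 0.13 (Hpgd) at 24 h. Few reads per kb stood behind Hpgd, Ptger2 and Ptger4 in RM-9 controls (means of 4.74, 4.63 and 4.45), which limits what could be detected.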
